A study of Homo sapiens with 12 samples.

Results

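The regions described here were the MTF2 peaks of control K562 cells that no longer overlapped any MTF2 peak after PHF19 had been depleted. They were chosen by that readout, as peaks of the control list without a shared base in the list from depleted cells, and there were 2099 of them among 12502 control peaks (16.8%, exact binomial 95% interval 16.1 to 17.5). They are called lost peaks below, and the other 10403 control peaks are called kept peaks. A lost peak is a place that the peak caller did not list in the depleted cells, and the lists give no signal outside peaks.

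K562 is a human cell line from chronic myeloid leukemia that can be driven towards erythroid cells. The study infected it with the empty lentiviral vector pLKO.1 (shCT) or with the same vector carrying an shRNA against PHF19 (sh#2; the labels of the RNA-seq name its long isoform as the target), and all cells were selected with puromycin. MTF2 ChIP-seq was made from shCT and from sh#2 cells and PHF19 ChIP-seq from shCT cells, with 1 library for each condition and chromatin of the fruit fly added as a spike-in. RNA-seq covered 6 libraries, 2 each for shCT, sh#2 and another shRNA, sh#1, and is used here only as the authors' mean over all of them. The track heading of the sh#2 list names the library sh4, and the labels were followed. The heading of the PHF19 list sets a hairpin sample beside the shCT library, so the control that its caller used is not certain. PHF19 in the sh#2 cells was not analysed here. The ChIP-seq depth is unknown and there is no replicate, so no p-value is given for any difference between lost and kept peaks, and each interval covers counting error only.

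MTF2 and PHF19 are Polycomb-like proteins, accessory subunits of the Polycomb repressive complex 2 (PRC2), which methylates lysine 27 of histone H3 at silent developmental genes. Both carry a winged-helix domain that contacts unmethylated CpG-rich DNA, a Tudor domain that binds methylated lysine 36 of histone H3, and PHD fingers. They join PRC2 at the same surface of its SUZ12 subunit and so occupy alternative forms of the complex. CpG islands are stretches of DNA that hold many CG dinucleotides and are the usual landing sites of PRC2 in mammalian cells.

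The sequences shown are examples, picked for a high MTF2 or PHF19 score, while the comparison below rests on the windows of all peaks. They are windows of 300 bases at the centres of lost peaks. They are read on the plus strand of GRCh37, with every CG dinucleotide in capitals. The highest caller's score at a promoter lay beside CRYAA (chr21:44581870-44582169, in an intron of an unnamed lncRNA). The highest score away from promoters lay past the 3′ end of SLC6A3 (chr5:1385893-1386192, between genes). The others come from an intron of SIM2 (chr21:38119556-38119855), and from the lost promoter peaks with the highest PHF19 scores, in an intron of ATF3 (chr1:212739923-212740222) and upstream of PRELID3A (chr18:12406405-12406704).
CRYAA locus: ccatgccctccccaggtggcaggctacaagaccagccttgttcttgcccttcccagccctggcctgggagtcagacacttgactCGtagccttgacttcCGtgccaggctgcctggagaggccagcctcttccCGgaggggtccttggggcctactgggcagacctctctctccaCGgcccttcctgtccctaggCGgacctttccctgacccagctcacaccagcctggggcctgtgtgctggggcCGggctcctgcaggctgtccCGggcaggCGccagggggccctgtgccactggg
SLC6A3 locus: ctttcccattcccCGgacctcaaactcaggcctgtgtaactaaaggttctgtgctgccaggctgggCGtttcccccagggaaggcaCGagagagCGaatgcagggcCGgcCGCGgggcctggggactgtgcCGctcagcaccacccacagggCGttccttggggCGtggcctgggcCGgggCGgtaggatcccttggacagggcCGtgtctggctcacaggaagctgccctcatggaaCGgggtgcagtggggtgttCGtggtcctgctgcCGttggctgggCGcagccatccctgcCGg
SIM2 intron: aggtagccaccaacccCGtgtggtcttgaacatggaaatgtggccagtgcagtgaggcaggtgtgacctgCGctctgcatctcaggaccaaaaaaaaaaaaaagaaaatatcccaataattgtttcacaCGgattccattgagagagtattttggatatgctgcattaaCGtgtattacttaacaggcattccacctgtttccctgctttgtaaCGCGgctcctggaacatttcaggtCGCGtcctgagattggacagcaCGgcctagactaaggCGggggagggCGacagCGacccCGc
ATF3 intron: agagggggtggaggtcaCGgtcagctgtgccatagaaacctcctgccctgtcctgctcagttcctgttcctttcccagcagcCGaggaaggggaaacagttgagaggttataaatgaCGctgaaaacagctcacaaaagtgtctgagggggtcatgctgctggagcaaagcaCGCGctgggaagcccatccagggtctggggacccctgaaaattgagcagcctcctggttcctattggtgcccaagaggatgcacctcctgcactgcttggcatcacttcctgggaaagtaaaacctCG
PRELID3A promoter: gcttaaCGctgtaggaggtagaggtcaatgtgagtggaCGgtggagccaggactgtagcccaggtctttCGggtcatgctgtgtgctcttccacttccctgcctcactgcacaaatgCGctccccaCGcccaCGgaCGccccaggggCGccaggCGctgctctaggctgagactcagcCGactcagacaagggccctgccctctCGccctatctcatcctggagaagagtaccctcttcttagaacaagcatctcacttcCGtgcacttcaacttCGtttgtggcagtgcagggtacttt
The windows held 8 CG dinucleotides at CRYAA, 18 at SLC6A3, 13 in SIM2, 6 in ATF3 and 13 at PRELID3A. The median lost peak had 4 in the same length and the median kept peak 7. Each window shown thus held more than the median lost peak, and they do not stand for the lost peaks as a group.

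Lost peaks were weak and narrow as a group, but not all of them were. Peaks are called weak or strong here by the score that the caller attached to them, at least 50 in these lists. Its median was 62.0 (quartiles 54.1 and 77.0) for lost peaks, against 96.4 (quartiles 66.3 and 168) for kept peaks. The sh#2 list had a higher median score (112) than all shCT peaks (86.6). Scores of the 2 lists set side by side below therefore do not measure a change in binding. The score was under 100 in 1830 lost peaks (87.2%) and in 5419 kept peaks (52.1%). The median width was 1147 bp for lost and 1927 bp for kept peaks, and 39.4% of lost peaks were narrower than 1 kb, against 10.6% of kept peaks. The share of peaks that were lost dropped from 34.5% (32.7 to 36.3) at scores from 50 to 60 to 3.55% (2.45 to 4.95) at scores from 150 to 200. At higher scores it stayed at 4.81% (3.49 to 6.44) from 250 to 400 and 3.79% (2.36 to 5.74) from 400 to 800. Of the 191 peaks scoring 800 or more, 0 were lost (upper bound of the interval 1.91%).

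**Figure D1:**
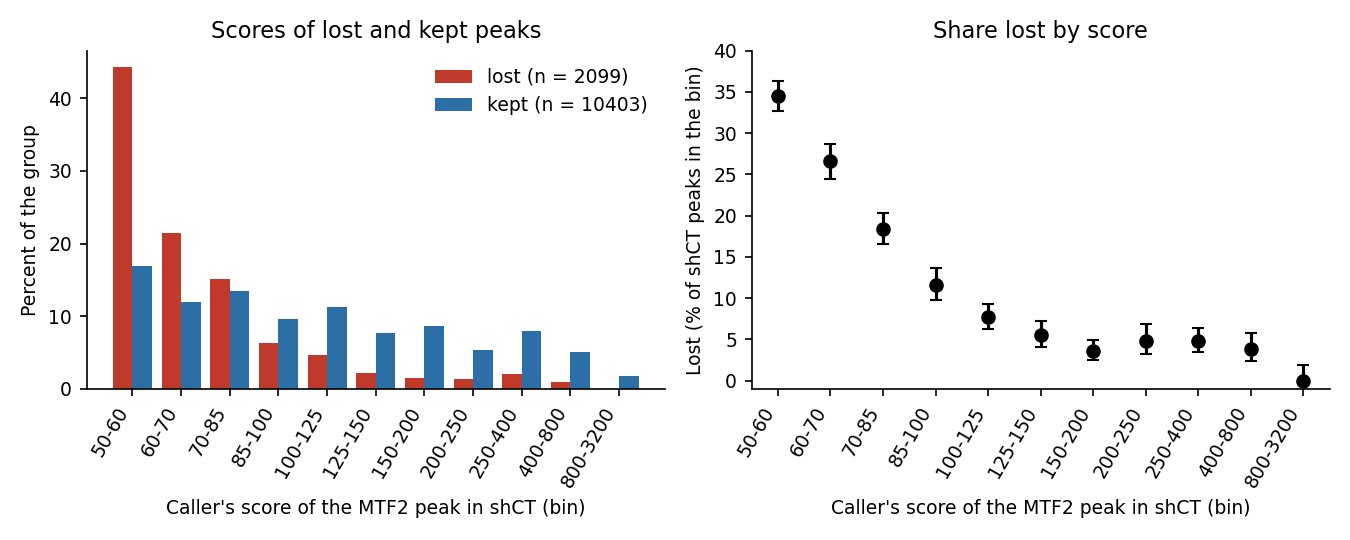
Left, percent of the 2099 lost (red) and 10403 kept (blue) MTF2 peaks in each bin of the caller's score. Right, percent of shCT peaks in each bin that were lost, with exact binomial 95% intervals; the share drops from 34.5% in the lowest bin and stays between 3.55% and 4.81% from 150 to 800.

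Lost peaks covered 3.52 Mb, or 12.1% of the 29.0 Mb under shCT peaks. The sh#2 list itself was longer, with 18287 peaks over 63.2 Mb and a median width of 2598 bp. The nearest sh#2 peak was at a median distance of 7968 bp. It lay under 1000 bp away for 335 lost peaks (16.0%), under 10000 bp away for 1151 (54.8%) and under 50000 bp away for 1683 (80.2%). At the border of the rule, 50 lost peaks lay under 100 bp from a sh#2 peak (2 of them touched it) and had a median score of 65.6, and 34 kept peaks overlapped by under 100 bp and had a median score of 56.1.

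A smaller share of lost than of kept peaks lay at promoters, counted where any base of a peak fell in the region within 2.5 kb of the transcription start site (TSS) of a coding or lncRNA gene of GENCODE. Of the lost peaks, 475 (22.6%, 20.9 to 24.5) were at a promoter, 836 (39.8%) elsewhere in a gene and 788 (37.5%) outside genes. Of the kept peaks, 39.4% (38.4 to 40.3) were at a promoter, 33.6% elsewhere in a gene and 27.0% outside genes. Promoters by this definition make up 11.7% of the genome. Seen the other way, 10.4% of shCT peaks at promoters were lost (9.52 to 11.3), 19.3% of those elsewhere in genes and 21.9% of those outside genes. Peaks were also cut into 4 classes at the quartiles of the shCT score, and the lower promoter share of lost peaks was present in each class. It was 20.9% against 29.6% in the lowest class and 36.6% (28.1 to 45.7) against 53.7% (51.9 to 55.5) in the highest.

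Lost peaks overlapped a PHF19 peak of control cells in a smaller share of cases than kept peaks did. The PHF19 list was used whole, with 5621 peaks, more than the study counted after its limit on tags. Of these, 2671 (47.5%) overlapped any shCT MTF2 peak. An overlap was found for 189 lost peaks (9.004%, 7.81 to 10.3) and 2491 kept peaks (23.9%, 23.1 to 24.8). Put as a loss rate, 7.05% (6.11 to 8.09) of the MTF2 peaks with a PHF19 peak were lost and 19.4% (18.7 to 20.2) of those without. The overlap grew with the MTF2 score in both groups, so the comparison was also made within the score classes. From the lowest to the highest score class, the share with PHF19 was 5.90%, 8.72%, 9.84% and 35.8% for lost peaks and 11.03%, 14.3%, 18.5% and 46.0% for kept peaks. In the highest class the interval of the lost peaks (27.3 to 44.9) reached the interval of the kept peaks (44.2 to 47.8). That class ran from 150.25 to 3100, and 191 kept but 0 lost peaks scored 800 or more. Lost and kept peaks of that class were thus not of like score. The same limit holds for its promoter shares and CpG ratios. With classes cut at the quartiles of the width, the narrowest had 5.23% against 11.01% and the widest 25.3% against 40.05%. At promoters alone the shares were 12.2% and 33.6%. Where PHF19 was present, the median of its own score was 83.0 at lost and 96.9 at kept peaks.

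**Figure D2:**
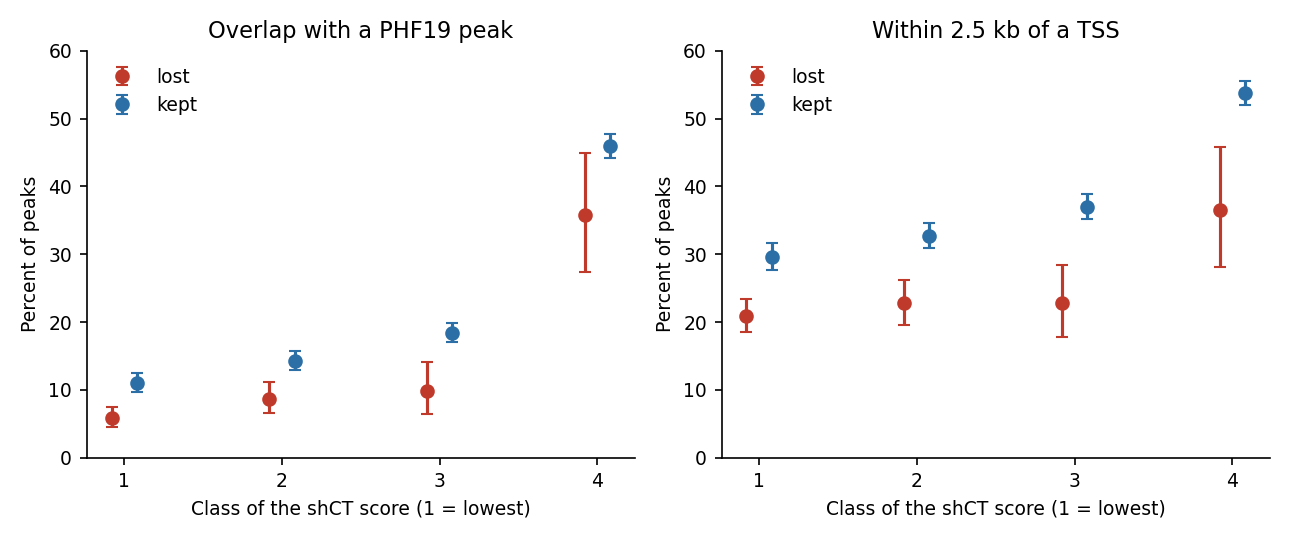
Percent of lost (red) and kept (blue) MTF2 peaks that overlap a PHF19 peak (left) and that lie within 2.5 kb of a TSS (right), in each of 4 classes of the shCT score, with exact binomial 95% intervals. The lost peaks sit below the kept peaks in all 4 classes of both panels, at 9.84% against 18.5% with PHF19 in class 3.

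The DNA under lost peaks was poorer in CpG. In the central 300 bp, the ratio of observed to expected CG dinucleotides had a median of 0.268 (quartiles 0.172 and 0.395) in lost peaks and 0.362 (0.240 and 0.538) in kept peaks, and the GC content had medians of 48.3% and 54.3%. The ratio was 0.321 against 0.450 at promoters and 0.252 against 0.327 elsewhere. In the lowest score class the medians were 0.260 and 0.320, and in the highest 0.310 and 0.424. For scale, 35116 RefSeq promoters of GRCh38.p14, each 300 bp long, had a median ratio of 0.579 and a median GC content of 58.7%. The quartile ranges of lost and kept peaks overlapped over all peaks, at promoters and elsewhere.

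The loss rate followed the CpG ratio both at promoters and away from them. Outside promoters it went from 30.3% (28.2 to 32.4) where the ratio was under 0.2 to 10.7% (8.52 to 13.2) where it was 0.6 or more. At promoters it went from 16.6% (13.8 to 19.8) to 5.91% (4.76 to 7.23). CpG-rich members did exist, since 40 lost peaks (1.91%) held 30 or more CG dinucleotides in their central window, against 684 kept peaks (6.58%).

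**Figure D3:**
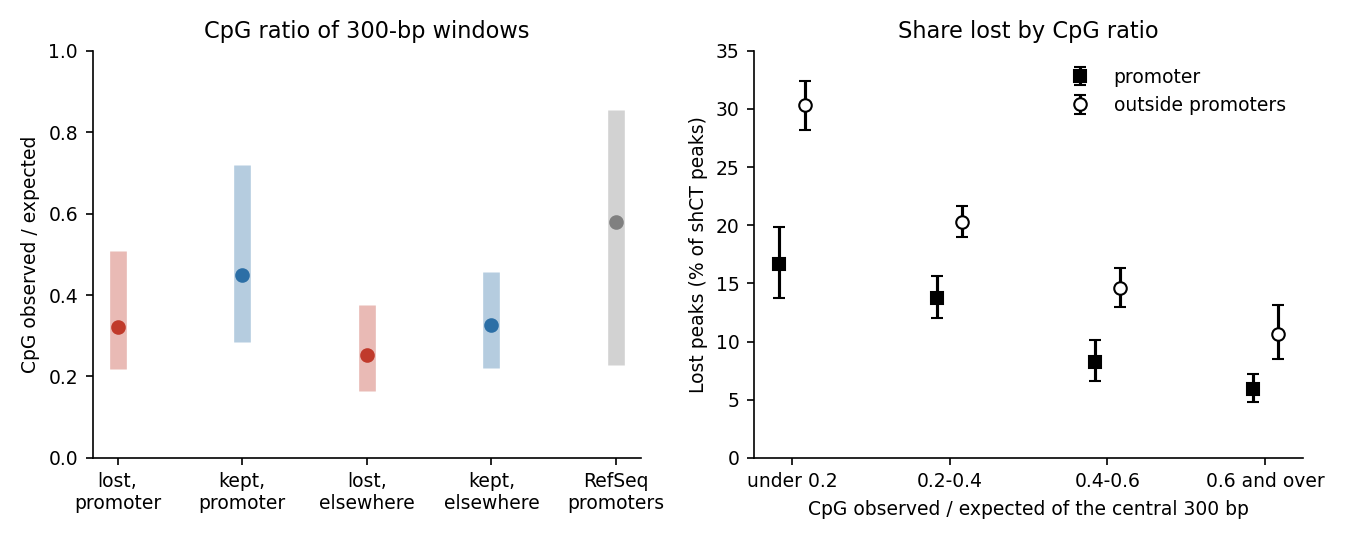
Left, CpG observed over expected in the central 300 bp of lost (red) and kept (blue) peaks at promoters and elsewhere and in RefSeq promoters (grey); points are medians and bars span the quartiles. Right, percent of shCT peaks that were lost in each range of that ratio at promoters (filled squares) and outside (open circles), with exact binomial 95% intervals; outside promoters it goes from 30.3% to 10.7%.

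Short motifs were searched on both strands of the same windows. The motif CG was present in 96.5% of lost and 99.2% of kept windows (96.0% of RefSeq promoters), and GCG, which contains it, in 79.2% and 90.2% (85.2%). The GATA motif AGATAA, read by the GATA factors of erythroid cells, was found in 311 lost windows (14.8%, 13.3 to 16.4) and 987 kept windows (9.49%, 8.93 to 10.1), against 10.3% of RefSeq promoters. The AP-1 motif TGANTCA was found in 9.24% of lost and 6.58% of kept windows, against 7.71% of RefSeq promoters. Both of these motifs are rich in A and T, and lost windows have less G and C. Windows of like GC content were compared in 4 classes cut at its quartiles. From the least to the most GC, the AGATAA share was 20.8% (18.2 to 23.6), 13.6%, 9.58% and 2.73% for lost windows. For kept windows it was 18.9% (17.3 to 20.6), 10.99%, 7.76% and 2.62%. These shares were closer than over all windows, but higher in lost windows in each class. The TGANTCA share was 10.3%, 9.12%, 9.83% and 4.09% for lost and 8.495%, 7.40%, 7.03% and 3.99% for kept windows. In class 3 the TGANTCA shares were about as far apart as over all windows, with overlapping intervals (7.11 to 13.1 and 6.09 to 8.05). In the same classes, from the least to the most GC, the share with PHF19 was 8.32%, 8.59%, 7.37% and 15.9% for lost peaks and 26.7%, 20.9%, 19.0% and 29.1% for kept peaks.

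Some lost peaks were neighbours along the chromosome, counted without a limit on the distance between them. Taken in genomic order, 1055 of the lost peaks (50.3%) stood next to another lost peak with no kept peak between. They formed 395 runs, and 63 runs held 4 or more. Members of a run could lie far apart: a run on chromosome 10 spanned 3584986 bp with 9133 bp under peaks. With 16.8% of all control peaks lost, scattered loss would also leave some neighbours lost together, and the share to be found then was not computed. The other 1044 had kept peaks as both neighbours. By chromosome the share lost ranged from 11.9% on chromosome 9 to 24.3% on chromosome 18.

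A small set of lost peaks was strong. A score of at least 250, a limit chosen after the values were seen, was reached by 63 lost peaks (3.00%) and 1556 kept peaks (15.0%). The strong lost peaks had a median width of 6543 bp, and 58 of the 63 belonged to runs of 2 or more. They came from 41 runs, and of the 36 with 2 or more peaks, 22 had at least 80% of their span under peaks, so most were nearly unbroken blocks. Chromosome ends, taken as the last 5 Mb, held 37 of the 63 (58.7%, 45.6 to 71.0), against 42.1% (39.6 to 44.6) of strong kept peaks. Over all peaks the order was the opposite, with 24.2% of lost and 33.6% of kept peaks there. The 63 share their runs, 18 of them lying in 5 runs, so an interval over peaks is too narrow. PHF19 peaks overlapped 24 of the 63 (38.1%, 26.1 to 51.2), against 59.6% (57.1 to 62.0) of strong kept peaks. In 25 of the 41 runs a sh#2 peak lay within 10 kb on both sides. The widest single peak was 28.4 kb in the shCT list and 35.6 kb in the sh#2 list; whether such blocks were treated alike by the caller in both lists was not tested.

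The strongest lost peak lay on chromosome 21 upstream of CRYAA, the alpha-crystallin chaperone of the eye lens (its central sequence is the one shown for the CRYAA locus). It had a score of 787 and a width of 9189 bp, overlapped PHF19 peaks of up to 123 and ranked 199 of the 12502 control peaks. The next control peak, over CRYAA itself, scored 311 and was lost too, with a PHF19 peak of 93.8. The run spanned chr21:44577426-44593773, and the nearest sh#2 peak lay downstream, 14189 bp from the end of the stronger peak. The stretch without a sh#2 peak that held the run was 369110 bp long, most of it upstream. Kept peaks of lower score, from 50.7 to 139.6, lay further downstream.

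At SLC6A3, which encodes the dopamine transporter, the listed binding was divided. A run of 6 lost peaks (chr5:1354546-1398265) covered the 3′ end of the gene and the DNA beyond it, with scores of 318, 51.8, 199, 74.7, 674 and 190.3 in order of position. The members of 318 and 674 overlapped PHF19 peaks of 334 and 74.9. The kept peaks of the gene's interior followed directly, and the highest of them scored 1161 in shCT cells and lay under a sh#2 peak scoring 1053. The boundary between kept and lost peaks fell inside a series of closely spaced control peaks.

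GABRD, the delta subunit of the GABA-A receptor, lay within a run of 5 lost peaks with scores of 283, 392, 620.5, 355 and 218 (chr1:1934192-1979997). Of these, 4 overlapped PHF19 peaks, the highest PHF19 score being 243 at the promoter of CFAP74. This block included the widest lost peak, 20086 bp across the GABRD promoter. Most control peaks on its flanks were kept, for instance a peak of 406 under a sh#2 peak of 826, and a weak peak of 53.8 on the right was lost. Both control peaks of GABRD were lost, and its mean normalized RNA count over the 6 libraries was 0.

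SIM2, a bHLH-PAS transcription factor of the developing brain, kept the peaks of its 5′ part and lost those of its 3′ part. The kept peaks (the highest at 337) lay under a pair of sh#2 peaks of 225 and 380.5. The 4 lost peaks within the gene scored 94.0, 421, 53.9 and 608, and PHF19 peaks of 102 and 219 lay at the stronger ones. WFDC1, a secreted protease-inhibitor-like protein, had a run of 8 lost peaks with a highest score of 494. That run held 2 of the 3 control peaks at WFDC1 promoters, where 2 sh#2 peaks also lay. The longest run, 10 peaks with scores from 57.1 to 340.2, lay inside SPSB1, an adaptor of ubiquitin ligases, and overlapped no PHF19 peak. The gene had 12 control peaks, and besides the promoter peak it kept a peak of 174 near its 3′ end. The promoter peak of SPSB1 scored 714 in shCT and 885 in sh#2 cells, in lists not scaled to each other, and carried a PHF19 peak of 238. SPSB1 was picked for its long run after the values were seen.

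**Figure D4:**
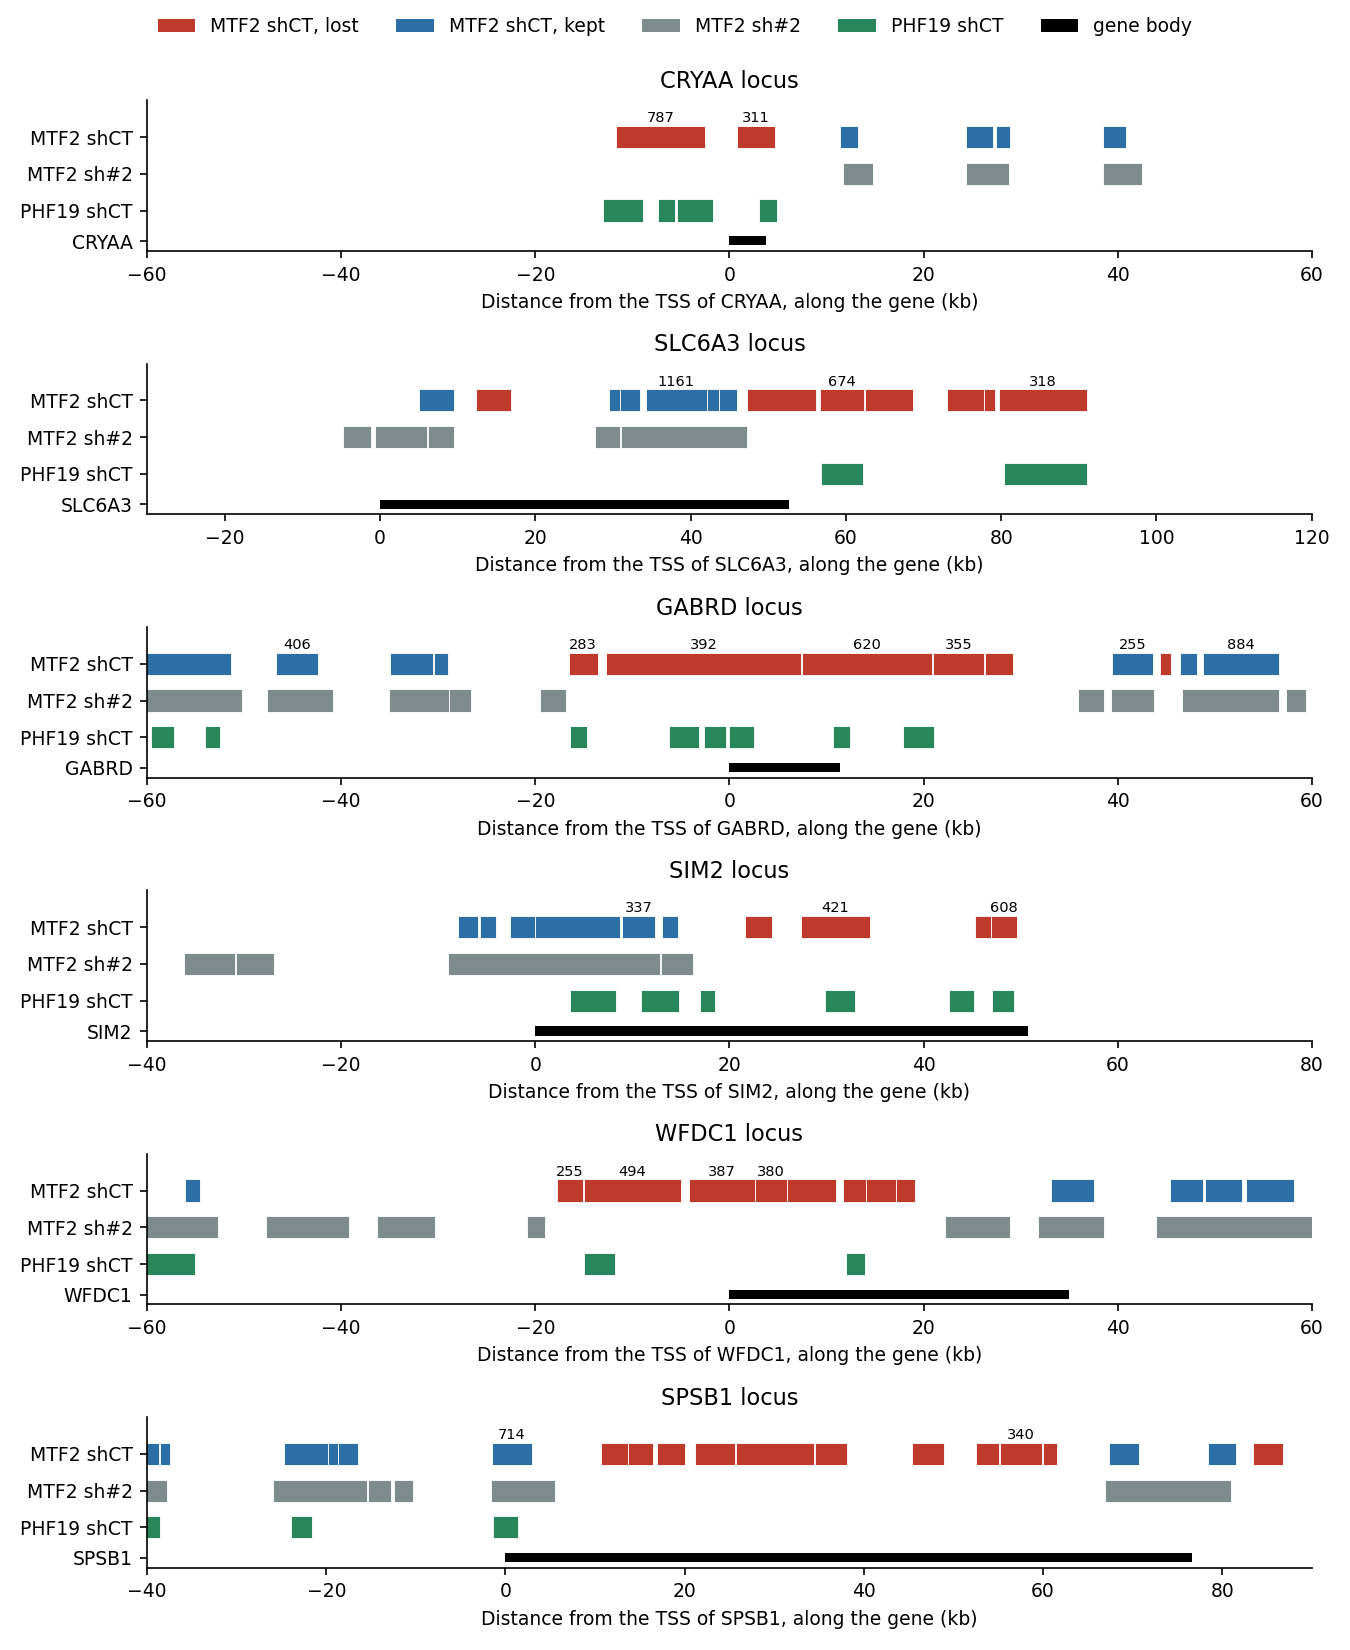
Peaks of the MTF2 shCT list (red, lost; blue, kept), the MTF2 sh#2 list (grey) and the PHF19 list (green) around 6 genes (black bars), by distance from the TSS in kb along the gene. Numbers are shCT scores of at least 250. At SPSB1 10 of the 12 control peaks of the gene are lost (11 of the 19 drawn) and the promoter peak of 714 is kept.

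Other strong lost peaks lay at genes of varied tissues. MYMK, the membrane protein of myoblast fusion, lost all 4 of its control peaks (highest score 493), and ADAMTSL2 next to it, which encodes a secreted matrix glycoprotein, lost promoter peaks of 459.6 and 458 but kept sh#2 peaks elsewhere. PMEPA1, an inhibitor of TGF-beta signaling, lost 4 of 7 control peaks. PRDM16, a zinc finger factor of blood stem cells and brown fat, lost 9 of 34. PTPRN2, a phosphatase-like protein of secretory vesicles, lost 13 of 92, a smaller share than the 16.8% of all control peaks that were lost. Further strong lost peaks lay upstream of INSIG1 (581), in IGFBPL1 (549), at RNF112 (440.3), at FRMD1 (404), in PLEKHG4B (433) and between genes near MRPL23 (438). Width did not always go with score: the lost peaks at NFASC, a cell adhesion protein of axons (13482 bp), and at YPEL1 (12233 bp) were among the 5 widest and scored 86.1 and 83.0. The authors' mean normalized count was 1.12 for PMEPA1, 0.58 for PRDM16 and 2.89 for PTPRN2.

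The lost promoter peaks with the strongest PHF19 peaks ranged widely in their own MTF2 score, from 50.4 to the peaks of 392 at GABRD and 283 at CFAP74 described above. The highest PHF19 score, 367, lay on a lost peak of 50.5 in ATF3, a stress-induced transcription factor. ATF3 had 4 control MTF2 peaks, of which 3 were lost, and still had 3 sh#2 peaks. The PRELID3A promoter had a lost peak of 145 with PHF19 at 317 and no sh#2 peak for 146139 bp on the nearer side. PLAG1, a zinc finger oncogene, shares its promoter with CHCHD7, and both lost peaks there (68.3 and 54.8) lay under a PHF19 peak of 226. FBXL2, a ubiquitin ligase subunit, had a lost peak of 69.0 with PHF19 at 160.2. COL16A1, a collagen, had 209 with PHF19 at 146, and PDE9A, a cyclic GMP phosphodiesterase, 189.7 with PHF19 at 189.

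Genes were then read as targets if a peak lay between 2.5 kb upstream of the TSS and the end of the transcripts. Of 4692 genes with a control target peak, 1109 held a lost peak (23.6%), and 769 of these (69.3%) still had a sh#2 peak. No sh#2 peak lay in the target region of 347 genes, 7.4% of the 4692, and 317 of the 347 had 1 control peak. A few of the 347, such as CMIP, had no lost peak, because their control peak met a sh#2 peak outside the target region. A PHF19 peak was present in 69 of the 347 (19.9%, 15.8 to 24.5) and in 2028 of the 4345 other target genes (46.7%, 45.2 to 48.2). These shares were not compared among genes of like length or number of control peaks, so they cannot be read as a trait of the 347 genes. At promoters, 464 of 3737 genes with a control peak there (12.4%) held a lost promoter peak.

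Lists of developmental transcription factors, the best known Polycomb targets, are read here beside the 23.6% of all target genes that held a lost peak and the 12.4% with a lost promoter peak. Of the 18 HOX genes with a control peak, 0 held a lost peak, as did 0 of 7 GATA and SOX factors and 0 of 3 cell cycle inhibitors. Among homeobox genes outside the HOX clusters, 47 had a control peak and 5 a lost one. Of these genes, 44 had a control promoter peak and 2 a lost one, EN1 (61.6) and VAX2 (50.4), both of which kept sh#2 peaks, and the EN1 peak lay 42 bp from a sh#2 peak. PITX3, a homeobox factor of lens and dopaminergic neurons, lost its sole peak (88.5). Of 14 forkhead genes, FOXP2 (53.1) and FOXP4 (55.3) had a lost promoter peak, and of 7 T-box genes TBX10 (70.5) and TBX2 (53.3). In the Notch pathway 12 genes had control promoter peaks and only HEY1, a repressor induced by Notch, had a lost one (51.1, PHF19 73.8).

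Among blood regulators the counts were small. Beside the same 23.6%, a lost peak was held by 1 of 5 myeloid factors with a control peak, 2 of 6 stem and progenitor factors, 1 of 2 erythroid factors, 1 of 3 genes of the red cell membrane and 0 of 1 megakaryocyte gene. GFI1, a zinc finger transcriptional repressor active in myeloid cells, lost its only peak, at the promoter. This peak scored 115, with a CpG ratio of 0.746 and 29 CG dinucleotides in the central window. ERG, a factor of blood stem cells, lost 1 promoter peak (56.5) and kept 7 sh#2 peaks, and RUNX1 lost its only control peak and had 5 sh#2 peaks. BCL11A, the repressor of fetal globin genes, lost 1 of 4 control peaks, none at the promoter, and ANK1, the ankyrin of the red cell membrane, lost 2 of 6. The genes of PRC2 and those of heme and globin had 0 control peaks, so none could be lost there. Of 3 PRC1 genes with a control peak, KDM2B, the subunit of a PRC1 variant that binds unmethylated CpG islands, lost its only peak (64.8), which held 52 CG dinucleotides in its central window (CpG ratio 0.946).

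Of the genes that the study followed by name, ATF3 lost 3 of 4 control peaks, as given above. CDKN1A, the p21 inhibitor of the cell cycle, WNT4, FOXC1, FZD3 and NODAL had 1 or 2 control peaks each and lost 0. PLCG2, a phospholipase of receptor signaling, lost 1 of 2 control peaks and had 4 sh#2 peaks. MYC, GATA1, PHF19 and MTF2 had no control peak. Beside the 23.6% of all target genes, of 15 Wnt ligands and receptors with a control peak, WNT16 alone held a lost peak (1 of its 4), and of 17 Wnt inhibitors and effectors RSPO4 and TCF7L1 did besides PLCG2 (1 of 1 and 6 of 11). Among 9 TGF-beta and BMP ligands, BMP6 and BMP7 each lost 1 of 5.

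Genes with lost peaks and genes with kept peaks both had low median levels. Expression was read from the authors' mean normalized count over all 6 RNA-seq libraries, shCT and knock-down together, so it places a gene by level and says nothing of a change. A count of at least 10 was reached by 46.7% (40.8 to 52.6) of 289 coding genes with a lost promoter peak, by 42.4% (40.2 to 44.6) of 1964 with kept promoter peaks only, and by 66.2% of all 18428 coding genes. For the coding genes with no sh#2 peak left, it was 52.2% (44.7 to 59.7) of 180, against 41.3% (39.4 to 43.2) of the 2546 with peaks in both lists. The median level per kb of exon was 2.19 for those with no sh#2 peak left, 0.866 for those with peaks in both lists and 72.7 for genes without a control peak. Expressed genes among those with no sh#2 peak left included CD2AP (8512), an adaptor of the actin cytoskeleton, CDC27 (6616), a subunit of the anaphase-promoting complex, and KDM2B (1889). CD2AP and CDC27 were picked after their values were seen. The libraries had the RNA of K562 cells, with high counts of GATA1 (7043), HBG1 (146040) and TFRC (31895) and a low count of CD3E (13.6). PTPRC stood at 4514.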

How the data were processed

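ChIP-seq reads were aligned by the authors with Bowtie to hg19 joined to the fly genome dm3, unique matches were kept, and peaks were called per library with MACS at a shift size of 100 bp. Each deposited list holds coordinates and the caller's score of every peak, which was not scaled by the fly spike-in. Tools and builds are named in the methods or in the submitters' processing notes, without versions. One sequence and one marker gene are not reported here. The study counted PHF19 peaks above a limit on their tags, which could not be applied to lists without tag counts. The list used here is therefore longer than the set of PHF19 peaks that the study reported. The caller's peak numbers run without a gap in the 3 lists. RNA-seq reads were mapped by the authors with TopHat and the shRNAs compared with shCT in DESeq2. Of that deposited table only the pooled mean count (a score: normalized by the authors and averaged over their 6 libraries) was used, per kb of exon where levels are compared between genes. Its fold changes, standard errors, test statistics and p-values were not used.

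Peaks were compared by a minimum overlap of 1 bp with pandas 2.3.3, numpy 2.4.6, scipy 1.17.1 and pysam 0.24.0 under Python 3.11.15. Places were read from GENCODE 44 lifted to GRCh37, the assembly of hg19, for 38878 coding and lncRNA genes, with the study's promoter definition (2.5 kb around the TSS). Of 27348 symbols in the RNA-seq table, 21106 matched. Shares carry exact binomial 95% intervals over peaks or genes, which are not replicates. The overlap code was checked on simulated peaks. Members and the 18 gene lists were chosen with earlier results of these data known. Named were the 10 strongest lost peaks at promoters and the 10 strongest elsewhere, the 5 widest, up to 10 lost promoter peaks by PHF19 score, list genes with a lost promoter peak or no sh#2 peak, and genes the study follows. Alternatives covered the overlap rule, score limits, the promoter definition and the expression limit.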

Additional observations from a re-analysis of the deposited data

How the results depend on the processing

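In all, 40 alternatives were computed, and 18 of them moved the value beyond a limit. The limit was the interval of the main result for shares and a set factor for counts. For the CpG ratio it was the quartiles of the lost peaks, which are wide for a median. The CpG alternatives therefore say little in this count. The share with PHF19 stayed lower in lost than in kept peaks in 14 of 14 alternatives, the promoter share in 10 of 10 and the median CpG ratio in 5 of 5. The number of lost peaks was 377 with a shCT score at or above the median (6.03% of such peaks) and 4102 where a sh#2 peak had to reach its own median score, and lost peaks held 12.1% of bases. It was 2242 when 50% of a peak had to be covered and 1764 with sh#2 peaks widened by 1000 bp. The promoter share of lost peaks was 15.5% with promoters of 1 kb, 17.1% with coding genes alone, 27.3% with a score at or above the median and 36.6% in the highest score class. The PHF19 share was 6.81% when PHF19 had to cover 50% of the peak, 5.38% with the stronger PHF19 peaks, 18.3% with a shCT score at or above the median and 6.80% for lost peaks with kept neighbours (this split was added after the data were seen). It was 5.90% and 35.8% in the outer score classes and 5.23% and 25.3% in the outer width classes. A lost promoter peak went with a mean count of at least 1 in 67.8% of coding genes (kept, 66.6%) and of at least 100 in 26.6% (kept, 17.6%). Genes without a sh#2 peak numbered 258 at promoters and 338 with sh#2 peaks widened, and 518 genes had every control peak lost whether or not another sh#2 peak was present. No paired analysis was possible because each ChIP-seq condition has 1 library and no test was run, and no replicate could be left out. Without tag counts or signal, a drop below the caller's threshold and a full loss of binding cannot be told apart.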
